A study of Mus musculus with 24 samples.

Results

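The adrenomedullin system and its neighbours in vascular tone control were followed through cultured mouse retinal endothelial cells: the peptide gene Adm, the receptor gene Calcrl, the receptor partner genes Ramp1, Ramp2 and Ramp3, the natriuretic peptide receptor genes Npr1 and Npr3, the endothelin genes Edn1 and Ednrb, and the endothelial nitric oxide synthase gene Nos3. These 10 genes were taken by symbol from the platform annotation, with earlier results of these data known, and stand among 18193 genes measured. All 10 were on the array, through 19 probe sets that name only 1 gene. The number of probe sets was 3 each for Calcrl, Ramp1, Npr3 and Ednrb, 2 for Adm, and 1 each for Ramp2, Ramp3, Npr1, Edn1 and Nos3.

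Adrenomedullin is a secreted peptide that relaxes vessels and tightens endothelial junctions. Its receptor is a complex of the CALCRL protein with a RAMP partner: RAMP2 or RAMP3 gives an adrenomedullin receptor, and RAMP1 gives the receptor for calcitonin gene-related peptide. NPR1 is a guanylyl cyclase that makes cyclic GMP when it binds natriuretic peptides, while NPR3 removes those peptides from the circulation. Endothelin-1, the product of Edn1, is a strong vasoconstrictor made by endothelial cells. The endothelin B receptor (Ednrb) on endothelial cells clears endothelin and couples to nitric oxide release, and NOS3 makes that nitric oxide. The receptor missing in the mutant cells, Frizzled-4, is bound by Norrin, a ligand secreted in the retina that acts through beta-catenin signalling and is needed for the retinal vasculature.

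Upstream sequences of 3 of these genes are shown because Npr3 gave the largest genotype difference of the 10 genes on gelatin, Edn1 differed in response to Norrin, and Calcrl stayed apart between the genotypes in every culture. The last 2 traits were not theirs alone: Npr3, Ramp2 and Ednrb also differed in response to Norrin, and Adm and Ramp3 also stayed apart. The sequences are the 250 bases before the RefSeq gene start in the mouse build GRCm38.p6, written 5′ to 3′ on the strand of the gene. Capitals mark matches to ACAAT, the core letters bound by SOX proteins, on either strand (ATTGT on the other strand).
Calcrl, chr2:84425267-84425516, minus strand: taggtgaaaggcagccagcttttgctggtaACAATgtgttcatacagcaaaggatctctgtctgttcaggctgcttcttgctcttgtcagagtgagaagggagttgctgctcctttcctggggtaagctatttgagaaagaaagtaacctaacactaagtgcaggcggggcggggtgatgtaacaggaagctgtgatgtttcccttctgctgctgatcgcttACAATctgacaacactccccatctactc
Npr3, chr15:11907372-11907621, minus strand: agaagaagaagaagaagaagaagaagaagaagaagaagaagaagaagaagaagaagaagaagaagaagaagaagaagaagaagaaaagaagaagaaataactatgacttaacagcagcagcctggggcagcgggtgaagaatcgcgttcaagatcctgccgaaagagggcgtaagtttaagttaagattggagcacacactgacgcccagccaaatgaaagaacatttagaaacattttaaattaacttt
Edn1, chr13:42301226-42301475, plus strand: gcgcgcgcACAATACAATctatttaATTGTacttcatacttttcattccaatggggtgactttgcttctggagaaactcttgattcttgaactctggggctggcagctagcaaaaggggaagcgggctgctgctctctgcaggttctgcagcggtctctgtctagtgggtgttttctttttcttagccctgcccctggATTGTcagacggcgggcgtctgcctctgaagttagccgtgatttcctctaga
Of the 10 genes, 8 had an upstream sequence in the RefSeq table (all but Ramp2 and Nos3). The letters of 4 motifs were searched in them on both strands: CTTTGA for TCF/LEF, ACAAT for SOX, TGANTCA for AP-1 and ACGTG for hypoxia-inducible factors. The SOX letters occurred in Calcrl at positions -220 and -28 from the start, and in Edn1 at -242, -237, -225 and -52. No other match was present in the 8 windows. Among 27025 promoters of the same length, 28.3% held the SOX letters, 14.1% the TCF/LEF letters, 6.87% the AP-1 letters and 16.6% the hypoxia letters. A match of so few letters describes the window and is not evidence of a bound site.

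The cells were lines purified from the retinas of adult mice of both sexes on a mixed C57Bl6/129 background. Every group carried the Immorto-mouse transgene, in which an interferon gamma responsive H2Kb promoter drives a temperature sensitive SV40 large T antigen, and RNA was taken at 37 °C without interferon. There were 8 groups of 3 arrays: wild type or Fz4-/- cells, each on gelatin, on Matrigel (a basement membrane gel), with control HEK293 cells or with HEK293 cells expressing Norrin. HEK293 is a human embryonic kidney line, and the co-culture RNA was about 1 part mouse to 1 part human per the labels. No group held HEK293 cells alone, so any part of a co-culture signal that came from human RNA cannot be told apart. Cells on Matrigel had been starved for 24 h and then kept for 6 h on the gel in 1% serum, steps the labels do not give for gelatin, so substrate, serum and replating cannot be told apart. How many lines stand behind each genotype is not given in the sources used here, so a genotype difference and a difference between lines cannot be told apart.

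Values were deposited as log2 intensities, on which 1 unit is a doubling. Fzd4, the deleted gene, averaged 8.70 ± 0.35 (SD, n = 3) in wild type and 5.06 ± 0.44 (SD, n = 3) in Fz4-/- cells on gelatin, and was lower in every Fz4-/- group. In cells grown alone the median gene of an array lay at 6.19 to 6.42. It lay at 4.44 to 4.50 in wild type and 4.19 to 4.31 in Fz4-/- co-cultures, so in co-culture the overall level of an array went with the genotype, and the 2 cannot be told apart there. Replicate 1 stood apart from replicates 2 and 3 in 6 of the 8 groups, all but the Fz4-/- co-cultures. In those 6 the SD of the gene differences from replicate 1 was 0.299 to 0.354, against 0.147 to 0.193 between replicates 2 and 3. Of 15 endothelial markers, 14 were above the median gene in each group grown alone (all but Vwf), with array means of 10.1 to 10.7. The lists for mural cells, fibroblasts, macrophages, neurons, glia and pigment epithelium had at most 2 members above the median gene in those groups. Of the mural list, Acta2 was above it in every group grown alone but wild type Matrigel, and Tagln in Fz4-/- cells on gelatin. Rgs5, Pdgfrb, Myh11 and the other mural markers were below it. In co-culture, where the median gene is lower, 5 and 6 of the 10 mural markers were above it in wild type and 3 in each Fz4-/- group. The labels do not say that replicates were separate cultures, so a p-value here reflects the spread among arrays, which may be technical.

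On gelatin, Fz4-/- cells had more Npr3, Calcrl, Ramp3 and Adm signal and less Nos3 signal than wild type cells. Differences are tested with limma with Benjamini-Hochberg adjustment over all genes, a gene counts as past the threshold at an adjusted p under 0.05, and errors of differences are standard errors. By this rule 4 of the 10 genes were higher and 1 lower, against 14.9% of all genes past the threshold (7.21% higher and 7.73% lower). The 3 arrays of one genotype did not overlap those of the other for 8 of 10, against 32.6% of all genes. The median difference of the 10 genes was 0.71, against -0.0040 for all genes. On Matrigel 5 of 10 were higher in Fz4-/- cells (Adm, Calcrl, Ramp3, Npr3 and Ednrb) and none lower, against 15.7% of all genes (6.91% higher and 8.77% lower), and the genotypes did not overlap for 5 of 10, against 32.7%. Without replicate 1 of every group, the counts past the threshold became 7 of 10 on gelatin, with Ramp2 and Ednrb added, and 6 of 10 on Matrigel, with Npr1 added. The share of all genes rose as well, to 27% and 26.7%.

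Moving to Matrigel lowered Adm and Npr3 and raised Calcrl and Npr1 in wild type cells, which made 4 of 10 genes past the threshold, against 18.4% of all genes (6.71% higher and 11.7% lower), and 7 of 10 without overlap, against 38.5%. In Fz4-/- cells the count was 8 of 10, against 19.7% of all genes (7.91% higher and 11.8% lower), with 8 of 10 not overlapping, against 39.1%: Calcrl, Ramp2, Npr1, Ednrb and Nos3 rose, and Adm, Npr3 and Edn1 fell. Without replicate 1 the counts were 6 of 10, with Ramp3, Edn1 and Ednrb added and Npr1 lost, and 9 of 10, with Ramp3 added, against 28% and 30.2% of all genes. The larger count does not show that the genotypes responded differently, since that difference was tested by itself. In the test of the difference between the 2 Matrigel responses, limma called 0 of 10, with 0.0165% of all genes called (0.0055% higher and 0.011% lower), and 2 of the 10 (Npr3 and Nos3) had an unadjusted p under 0.05, against 4.56% of all genes. Without replicate 1 it called Npr3, against 0.335% of all genes.

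With Norrin-expressing instead of control HEK293 cells, Npr3, Ramp2, Edn1 and Calcrl rose in wild type cells, 4 of 10 against 9.57% of all genes (5.39% higher and 4.18% lower). These 4 were also the genes without overlap, against 21.4% of all genes. In Fz4-/- cells Ednrb and Adm rose, 2 of 10 against 0.456% of all genes (0.214% higher and 0.242% lower), and 5 of 10 did not overlap, against 19.5%. The test of the difference between the 2 Norrin responses called Npr3, Ramp2 and Edn1 lower and Ednrb higher in Fz4-/- cells, 4 of 10 against 2.12% of all genes (0.874% higher and 1.24% lower). Without replicate 1 of every group Npr1 and Nos3 joined the wild type count, which became 6 against 11.1% of all genes, and the Fz4-/- count was 2 against 0.649%. The difference of responses then held 4, with Npr1 (-0.77) in place of Ednrb (0.63, limma adjusted p = 0.139), against 2.47% of all genes.

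**Figure D1:**
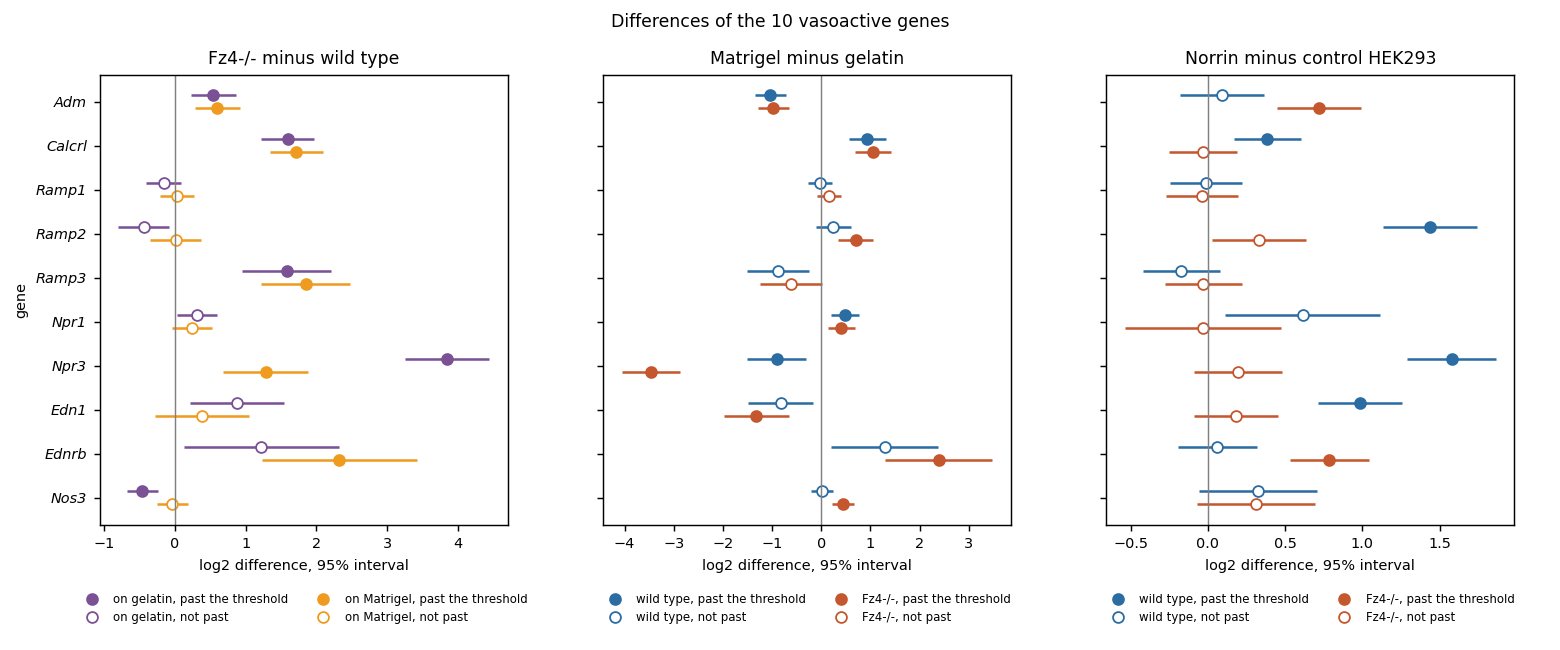
Log2 differences of the 10 genes with 95% intervals, filled where past the threshold: Fz4-/- minus wild type on gelatin and on Matrigel, Matrigel minus gelatin in each genotype, and Norrin minus control HEK293 co-culture in each genotype. Npr3 lies farthest from 0 in the gelatin genotype comparison (3.84) and in the Fz4-/- Matrigel comparison (-3.46), and Npr3, Ramp2 and Edn1 lie to the right of 0 with Norrin in wild type cells.

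The endothelial markers moved with the Norrin comparison in wild type cells. Of the 15, 13 rose, their median difference was 0.81, and their mean per array went from 6.17 to 6.41 with control HEK293 cells to 6.85 to 7.25 with Norrin HEK293 cells. In Fz4-/- co-cultures limma called 0 of 15 (5 at an unadjusted p under 0.05, against 8.54% of all genes), and the mean per array went from 7.22 to 7.34 to 7.37 to 7.53. In bulk RNA, more endothelial cells and more of a transcript per cell cannot be told apart. The genes were therefore also read relative to the marker mean of the same array, a reading chosen after seeing the data and given with no test. In wild type cells that mean was 0.78 higher with Norrin. Relative to it Npr3, Ramp2 and Edn1 were higher with Norrin and the other 7 genes lower. The genes not past the threshold read -0.69 for Adm, -0.79 for Ramp1, -0.95 for Ramp3, -0.17 for Npr1, -0.72 for Ednrb and -0.46 for Nos3. The arrays of Adm and Npr1 overlapped on this reading, and those of the other 4 did not. A gene that did not move reads lower here by the marker rise alone. As measured, Ramp1 (-0.01) and Ednrb (0.06) hardly moved, so their lower reading restates the rise of the markers.

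Adm, the adrenomedullin gene, was highest in Fz4-/- cells on gelatin. Its values there were 12.04, 11.95 and 12.01, against 11.49, 11.48 and 11.38 in wild type cells, and the groups did not overlap. The difference was 0.55 ± 0.14 (n = 3 per group, limma adjusted p = 0.0252). On Matrigel the Fz4-/- arrays read 11.21, 10.91 and 10.94 and the wild type arrays 10.81, 10.23 and 10.22, a difference of 0.60 ± 0.14 (limma adjusted p = 0.0150). Both genotype calls were close to the threshold. The gelatin call was lost without any one of the 3 Fz4-/- arrays or of wild type replicates 2 and 3, with limma adjusted p of 0.0556 to 0.0886. The Matrigel call was lost without Fz4-/- replicate 1 or wild type replicate 2 or 3, with limma adjusted p of 0.0596 to 0.0695.

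The fall of Adm on Matrigel was of like size in both genotypes: -1.03 ± 0.14 in wild type (limma adjusted p = 0.000935) and -0.98 ± 0.14 in Fz4-/- cells (limma adjusted p = 0.00109). The 4 groups grown alone thus ranked Fz4-/- gelatin, wild type gelatin, Fz4-/- Matrigel and wild type Matrigel, with no overlap between neighbours. The interval of the difference between the responses ran from -0.39 to 0.50. A second Adm probe set, 1416077_at, gave -1.15 and -1.24 for Matrigel and 0.62 and 0.54 for genotype on gelatin and Matrigel.

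In co-culture Adm separated by genotype. Wild type arrays read 6.39, 5.97 and 5.89 with control and 6.34, 6.05 and 6.14 with Norrin HEK293 cells, which overlapped. Fz4-/- arrays read 7.99, 7.80 and 7.87 with control cells and 8.56, 8.71 and 8.55 with Norrin cells, which did not overlap. The rise of 0.72 ± 0.13 in Fz4-/- cells passed the threshold (limma adjusted p = 0.0124), while in wild type cells the difference was 0.09 ± 0.13. The difference between these responses, 0.63 ± 0.18, did not pass (limma adjusted p = 0.0969). The Fz4-/- call was lost without any one of replicates 2 and 3 of either Fz4-/- group, with limma adjusted p of 0.0559 to 0.110. Probe set 1416077_at gave 0.69 (limma adjusted p = 0.290) for it and 0.47 (limma adjusted p = 0.186) for wild type cells.

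Calcrl, the receptor subunit shared by adrenomedullin and calcitonin gene-related peptide, was higher in Fz4-/- cells in all 4 cultures. On gelatin wild type arrays read 7.04, 7.34 and 7.07 and Fz4-/- arrays 8.94, 8.77 and 8.52, a difference of 1.59 ± 0.17 or 3.02-fold (limma adjusted p = 7.73e-05). On Matrigel they read 7.78, 8.21 and 8.27 against 10.11, 9.60 and 9.69, a difference of 1.71 ± 0.17 or 3.28-fold (limma adjusted p = 4.56e-05). The genotypes did not overlap on either substrate.

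Calcrl also rose on Matrigel in both genotypes, by 0.94 ± 0.17 in wild type (limma adjusted p = 0.00366) and 1.05 ± 0.17 in Fz4-/- cells (limma adjusted p = 0.00180). Its direction was thus opposite to that of Adm on the gel, and the same as that of Adm between genotypes. Wild type gelatin, wild type Matrigel, Fz4-/- gelatin and Fz4-/- Matrigel followed each other upward with no overlap. A second probe set, 1418489_a_at, gave 1.86 and 1.47 for genotype, both past the threshold, and 0.94 and 0.55 for Matrigel, neither past it (limma adjusted p = 0.104 and 0.331). The third, 1459536_at, stayed between 1.90 and 2.78 on all 24 arrays.

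With control HEK293 cells Calcrl read 2.91, 2.73 and 2.91 in wild type and 5.44, 5.45 and 5.48 in Fz4-/- cells. With Norrin cells it read 3.13, 3.35 and 3.23 in wild type and 5.41, 5.53 and 5.33 in Fz4-/- cells, so the genotypes stayed far apart. The rise with Norrin in wild type cells was 0.39 ± 0.10 (limma adjusted p = 0.0242), among low values. It was lost without control replicate 2, Norrin replicate 2 or Norrin replicate 3, with limma adjusted p of 0.0644 to 0.107, and was 0.04 by probe set 1418489_a_at. Relative to the endothelial marker mean Calcrl was 0.40 lower with Norrin, with no overlap.

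**Figure D2:**
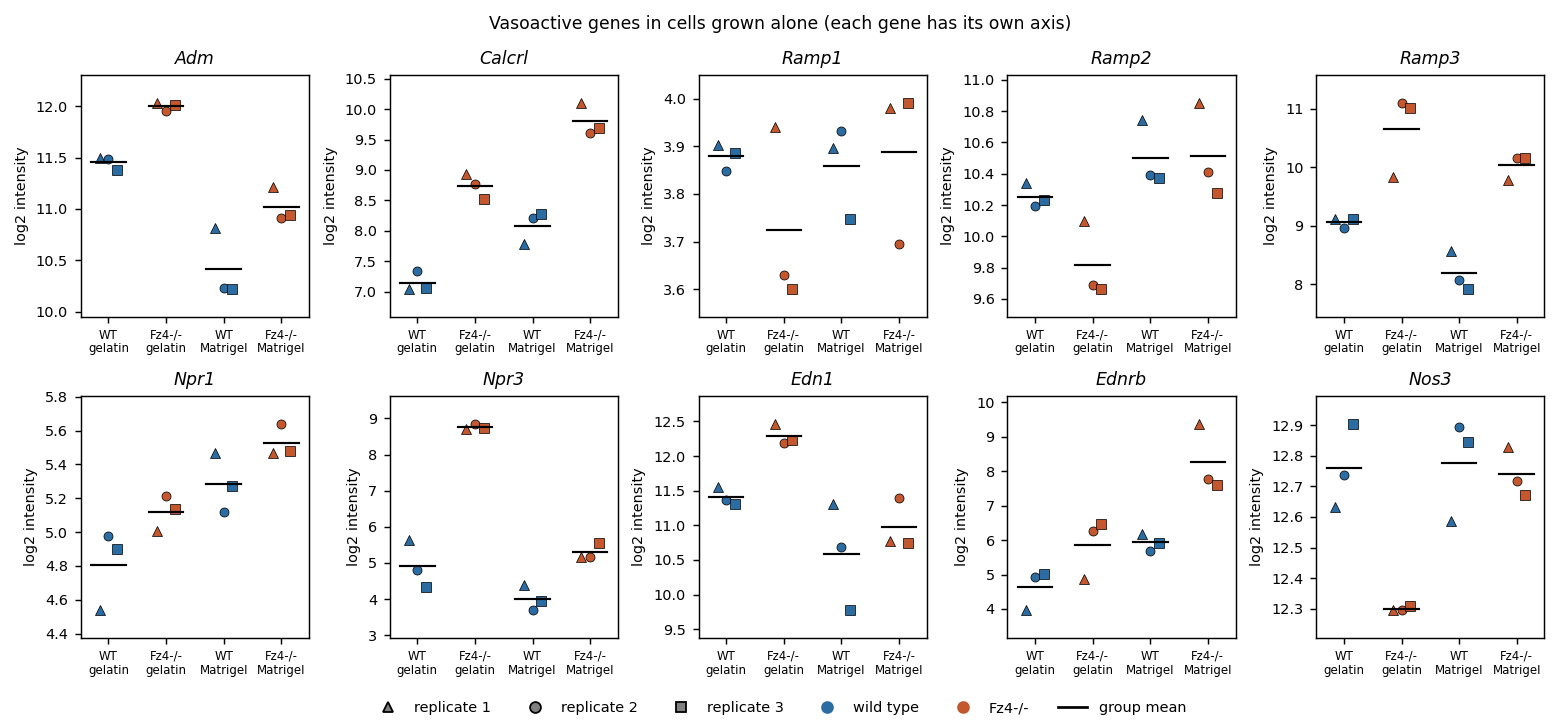
Log2 intensity of the 10 genes in the 12 arrays of cells grown alone, with a marker shape per replicate number and a line at each group mean; each gene has its own vertical axis. Adm lies lower and Calcrl higher on Matrigel in both genotypes, both lie higher in Fz4-/- cells, and Npr3 is high in the 3 Fz4-/- gelatin arrays, at 8.70 to 8.85.

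The receptor partners differed among themselves. Ramp3 followed the genotype in cells grown alone. On gelatin its wild type arrays read 9.13, 8.96 and 9.13 and its Fz4-/- arrays 9.83, 11.11 and 11.01, a difference of 1.58 ± 0.29 (limma adjusted p = 0.00327). On Matrigel they read 8.58, 8.07 and 7.92 against 9.78, 10.17 and 10.17, a difference of 1.85 ± 0.29 or 3.60-fold (limma adjusted p = 0.00112). Replicate 1 of the Fz4-/- gelatin group was more than 1 unit below its neighbours, yet still above every wild type array.

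Ramp3 did not pass the threshold for Matrigel. The difference was -0.88 ± 0.29 in wild type cells (limma adjusted p = 0.0536) and -0.61 ± 0.29 in Fz4-/- cells (limma adjusted p = 0.162). Without wild type Matrigel replicate 1 the first was -1.07 (limma adjusted p = 0.0407), and without Fz4-/- gelatin replicate 1 the second was -1.02 (limma adjusted p = 0.00511). With the replicate number as a block the wild type difference passed as well (limma adjusted p = 0.0483), as did centring each array on its median (-0.93, limma adjusted p = 0.0306). Over all alternatives the limma adjusted p ran from 0.000557 to 0.287 in wild type and from 0.000732 to 0.530 in Fz4-/- cells. Across both co-cultures Ramp3 lay at 3.95 to 4.45 in wild type cells (6 arrays) and at 5.54 to 5.77 in Fz4-/- cells (6 arrays). Its Norrin differences were -0.17 ± 0.12 and -0.03 ± 0.12, neither past the threshold.

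Ramp2, a partner that is typical of endothelium, did not pass the threshold by genotype in the main fit of cells grown alone. On gelatin it read 10.34, 10.19 and 10.23 in wild type and 10.10, 9.69 and 9.66 in Fz4-/- cells. All Fz4-/- arrays were lower, but the difference of -0.44 ± 0.16 did not pass the threshold (limma adjusted p = 0.105). It did with the replicate number as a block (limma adjusted p = 0.00514) and without Fz4-/- gelatin replicate 1 (-0.58, limma adjusted p = 0.0467), within a range of 0.000999 to 0.456 over all alternatives. On Matrigel Ramp2 read 10.74, 10.39 and 10.37 against 10.86, 10.41 and 10.28, and the difference of 0.01 had an interval of -0.35 to 0.37. Ramp2 rose on Matrigel by 0.70 ± 0.16 in Fz4-/- cells (limma adjusted p = 0.0125; 0.0518 without Fz4-/- gelatin replicate 3) and differed by 0.25 ± 0.16 in wild type cells (limma adjusted p = 0.329).

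In wild type cells Ramp2 had the largest Norrin difference of the 5 adrenomedullin genes. With control HEK293 cells the wild type arrays read 6.09, 6.29 and 6.58. With Norrin cells they read 7.44, 7.94 and 7.90, a rise of 1.44 ± 0.14 or 2.71-fold (limma adjusted p = 2.47e-06). No Norrin array overlapped a control array. In Fz4-/- cells the values were 7.14, 6.90 and 6.89 with control and 7.24, 7.30 and 7.38 with Norrin cells. That difference, 0.33 ± 0.14, did not pass (limma adjusted p = 0.539), and the difference between the genotypes' responses was -1.11 ± 0.20 (limma adjusted p = 0.00557). The wild type rise also exceeded that of the endothelial markers: relative to their mean on the same array, Ramp2 was 0.66 higher with Norrin, with no overlap.

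Ramp1, the calcitonin gene-related peptide partner, stayed low. It read 3.60 to 3.99 in all 12 arrays grown alone and did not pass the threshold in any comparison of them, nor with Norrin in either genotype. Across both co-cultures it lay at 3.42 to 3.59 in wild type and at 2.73 to 3.05 in Fz4-/- cells.

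Npr3, the clearance receptor for natriuretic peptides, gave the largest difference between the genotypes among the 10 genes. On gelatin it read 5.62, 4.79 and 4.34 in wild type and 8.70, 8.85 and 8.72 in Fz4-/- cells, a difference of 3.84 ± 0.27 or 14.3-fold with a 95% interval of 9.47 to 21.6 (limma adjusted p = 2.93e-06). The other 2 Npr3 probe sets gave 2.83 and 2.19, both past the threshold. On Matrigel the Fz4-/- arrays read 5.15, 5.17 and 5.56 and the wild type arrays 4.40, 3.69 and 3.96. The genotypes still did not overlap, and the difference of 1.28 ± 0.27 passed (limma adjusted p = 0.00773). It was 0.66 by 1448024_at, which passed, and 0.22 by 1450286_at, which did not.

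The high Npr3 level of Fz4-/- cells on gelatin was therefore mostly gone on Matrigel, with a fall of -3.46 ± 0.27 (limma adjusted p = 3.35e-05), or 11.0-fold. In wild type cells the difference was -0.90 ± 0.27 (limma adjusted p = 0.0391), with replicate 1 on Matrigel (4.40) above gelatin replicate 3 (4.34). That wild type call was lost without gelatin replicate 1 or 2 or Matrigel replicate 2 or 3, with limma adjusted p of 0.0717 to 0.137.

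Whether Npr3 responded differently to Matrigel in the 2 genotypes depended on how the gene was read. The difference between the responses was -2.56 ± 0.39, at a limma adjusted p of 0.105. By 1448024_at it was -2.16 (limma adjusted p = 0.000313) and by 1450286_at -1.97 (limma adjusted p = 0.00983), adjusted over all probe sets. The mean of the probe sets gave -2.23 (limma adjusted p = 0.00260). Leaving out wild type gelatin replicate 1, whose value of 5.62 was the highest of its group, gave -2.91 (limma adjusted p = 0.00892). Over all alternatives the value ran from -2.91 to -2.23 and the limma adjusted p from 0.000216 to 1.00.

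In co-culture Npr3 was one of the genes that rose with Norrin in wild type cells. Control arrays read 5.45, 5.02 and 5.37 and Norrin arrays 6.69, 7.01 and 6.87, a rise of 1.58 ± 0.14 or 2.98-fold (limma adjusted p = 5.27e-07). In Fz4-/- cells the arrays read 5.94, 5.67 and 5.76 with control and 5.76, 6.11 and 6.08 with Norrin cells, which overlapped, and the difference was 0.19 ± 0.14. The responses differed by -1.38 ± 0.19 (limma adjusted p = 0.000464). By 1448024_at the wild type rise was 1.21 and the difference of responses -1.29, both past the threshold. By 1450286_at they were 0.37 and -0.40, neither past it. Relative to the endothelial marker mean Npr3 was 0.80 higher with Norrin in wild type cells, with no overlap. In wild type cells Npr3 averaged 4.92 on gelatin and 5.28 with control HEK293 cells, while the median gene lay at 6.34 and 4.48. Whether human RNA added to the co-culture signal was not tested.

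The order of the genotypes for Npr3 in co-culture depended on the reading. As measured, Npr3 was higher in Fz4-/- cells on gelatin, on Matrigel and with control HEK293 cells (0.51 ± 0.14), and lower in Fz4-/- cells with Norrin HEK293 cells (-0.87 ± 0.14). Relative to the endothelial marker mean of the same array it was lower in Fz4-/- cells in both co-cultures, by -0.44 and -1.24, with no overlap.

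**Figure D3:**
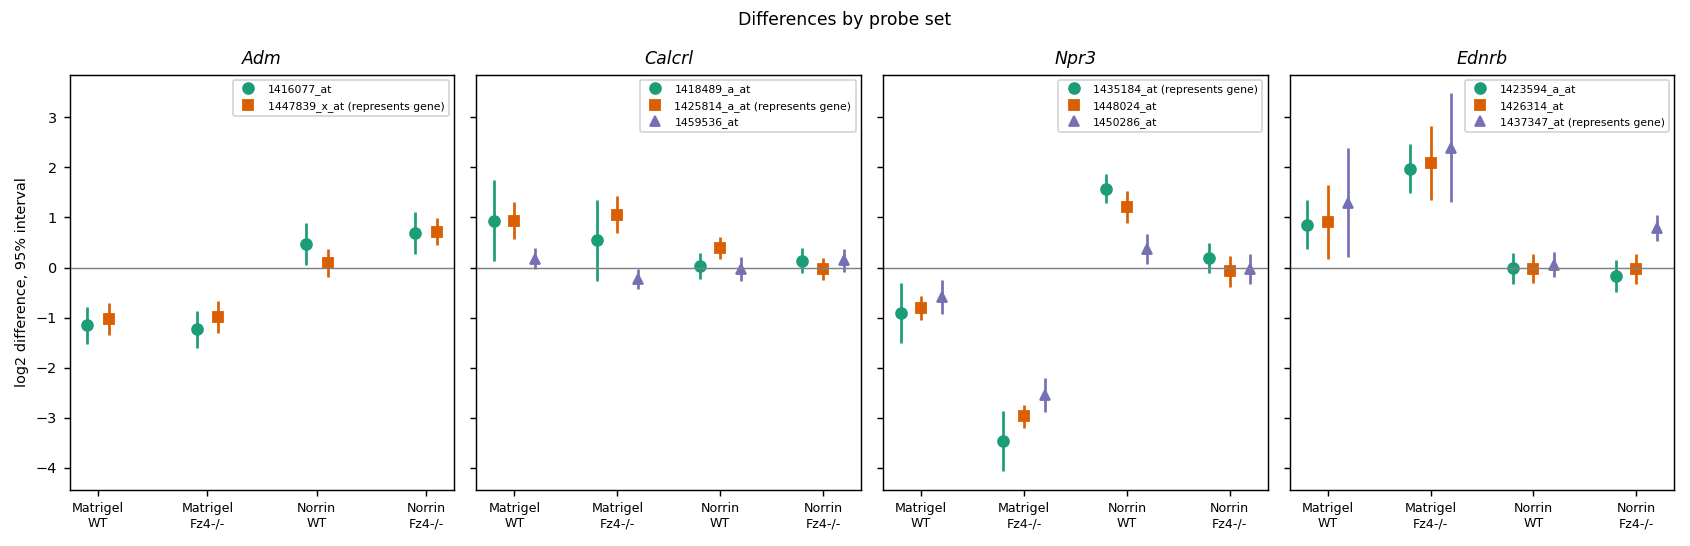
Log2 differences with 95% intervals for each probe set of Adm, Calcrl, Npr3 and Ednrb, for Matrigel minus gelatin and Norrin minus control HEK293 in wild type (WT) and Fz4-/- cells. The 3 Npr3 probe sets all lie below -2.5 for Matrigel in Fz4-/- cells, and only 1 of the 3 Ednrb probe sets lies above 0 for Norrin in Fz4-/- cells.

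Npr1, the guanylyl cyclase receptor, was below the median gene in every group. In cells grown alone it read 4.54 to 5.64 and differed by genotype by 0.32 ± 0.13 on gelatin (limma adjusted p = 0.132; 0.40 with limma adjusted p = 0.0472 after centring each array) and 0.24 ± 0.13 on Matrigel (limma adjusted p = 0.244). It rose on Matrigel by 0.48 ± 0.13 in wild type (limma adjusted p = 0.0225) and 0.41 ± 0.13 in Fz4-/- cells (limma adjusted p = 0.0423). These calls were lost without wild type gelatin replicate 1 or Matrigel replicate 1 or 3 (limma adjusted p of 0.0574 to 0.0745), and without any 1 of the 6 Fz4-/- arrays (0.0620 to 0.132).

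In wild type co-cultures Npr1 varied within groups. It read 2.68, 3.66 and 3.52 with control and 3.24, 4.09 and 4.37 with Norrin cells, with replicate 1 lowest in both. The difference of 0.61 ± 0.24 did not pass (limma adjusted p = 0.129). It did with the replicate number as a block (limma adjusted p = 0.0400) and without Norrin replicate 1 (0.94, limma adjusted p = 0.00759), within a range of 0.00606 to 0.499. Fz4-/- arrays read 2.75 to 2.98 in both co-cultures.

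Edn1, the endothelin-1 gene, read 11.56, 11.37 and 11.31 in wild type and 12.47, 12.18 and 12.23 in Fz4-/- cells on gelatin. The groups did not overlap, but the difference of 0.88 ± 0.30 did not pass (limma adjusted p = 0.0783). The fit shares its error with the Matrigel groups, where the spread was larger: wild type arrays read 11.30, 10.68 and 9.78 and Fz4-/- arrays 10.78, 11.40 and 10.74. With the arrays on gelatin alone the limma adjusted p was 0.00339, and with the replicate block it was 0.0333, within a range of 0.00339 to 0.213 over all alternatives.

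On Matrigel Edn1 fell by 1.32 ± 0.30 in Fz4-/- cells (limma adjusted p = 0.0111). In wild type cells the difference was -0.83 ± 0.30 (limma adjusted p = 0.0798). It passed with the replicate block (limma adjusted p = 0.0395) and without Matrigel replicate 1 (-1.19, limma adjusted p = 0.0126), within a range of 0.0126 to 0.275. The genotypes overlapped on Matrigel.

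With Norrin, Edn1 rose in wild type cells from 9.38, 9.17 and 9.10 to 9.88, 10.42 and 10.30. The rise of 0.99 ± 0.13, or 1.98-fold, passed (limma adjusted p = 5.75e-05). Fz4-/- arrays read 9.22, 9.13 and 9.11 with control and 9.26, 9.40 and 9.35 with Norrin cells, a difference of 0.18 ± 0.13 (limma adjusted p = 0.761). The responses differed by -0.81 ± 0.18 (limma adjusted p = 0.0252). That last call was lost when any 1 of 10 of the 12 arrays was left out, with limma adjusted p of 0.0516 to 0.0797, and kept without replicate 1 of either wild type group. Relative to the endothelial marker mean Edn1 was 0.21 higher with Norrin in wild type cells, and the arrays overlapped.

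Ednrb, the endothelin B receptor gene, moved opposite to Edn1 on Matrigel. In wild type cells it read 3.97, 4.93 and 5.02 on gelatin and 6.19, 5.68 and 5.92 on Matrigel. In Fz4-/- cells it read 4.87, 6.25 and 6.47 on gelatin and 9.38, 7.79 and 7.59 on Matrigel. Replicate 1 was the lowest array on gelatin and the highest on Matrigel in both genotypes.

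The rise of Ednrb on Matrigel was 2.39 ± 0.50 in Fz4-/- cells, or 5.24-fold (limma adjusted p = 0.00698), and the difference was 1.29 ± 0.50 in wild type cells (limma adjusted p = 0.0948). The other 2 probe sets gave 1.97 and 2.09 in Fz4-/- cells, both past the threshold, and 0.85 and 0.91 in wild type cells, the first past it. On Matrigel Fz4-/- cells were higher by 2.32 ± 0.50 (limma adjusted p = 0.00819), by all 3 probe sets. On gelatin the difference of 1.22 ± 0.50 did not pass (limma adjusted p = 0.136), although it did without Fz4-/- replicate 1 (1.72, limma adjusted p = 0.0384), within a range of 0.000124 to 0.463.

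In co-culture Ednrb was low. It read 2.47 to 2.89 in the 6 wild type arrays, 2.30, 2.19 and 2.10 in Fz4-/- cells with control and 3.05, 3.08 and 2.81 with Norrin cells. The rise of 0.79 ± 0.12 in Fz4-/- cells passed (limma adjusted p = 0.00317), and so did the difference from the wild type response, 0.73 ± 0.17 (limma adjusted p = 0.0316). The other 2 probe sets gave -0.17 and -0.03 for the rise and -0.15 and -0.01 for the difference of responses. That difference was lost when any 1 of 8 arrays was left out, with limma adjusted p of 0.0516 to 0.100: replicates 1 and 3 of wild type control, replicate 2 of wild type Norrin, all 3 Fz4-/- control arrays and Fz4-/- Norrin replicates 1 and 2.

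Nos3, the endothelial nitric oxide synthase gene, read 12.63, 12.74 and 12.90 in wild type and 12.30, 12.30 and 12.31 in Fz4-/- cells on gelatin, which did not overlap, a difference of -0.46 ± 0.10 (limma adjusted p = 0.00947). On Matrigel it read 12.59, 12.89 and 12.85 against 12.83, 12.72 and 12.67, which overlapped. Nos3 rose on Matrigel by 0.44 ± 0.10 in Fz4-/- cells (limma adjusted p = 0.0106) and differed by 0.02 ± 0.10 in wild type cells. The difference between these responses was 0.42 ± 0.14 (limma adjusted p = 0.879).

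In co-culture Nos3 read 7.39, 7.79 and 7.76 in wild type cells with control and 7.40, 8.30 and 8.22 with Norrin cells. The difference of 0.33 ± 0.18 did not pass (limma adjusted p = 0.335), and was 0.61 (limma adjusted p = 0.00603) without Norrin replicate 1, within a range of 0.00603 to 0.753. Fz4-/- arrays read 8.54 to 8.70 with control and 8.75 to 9.02 with Norrin cells, a difference of 0.31 ± 0.18 (limma adjusted p = 0.689).

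**Figure D4:**
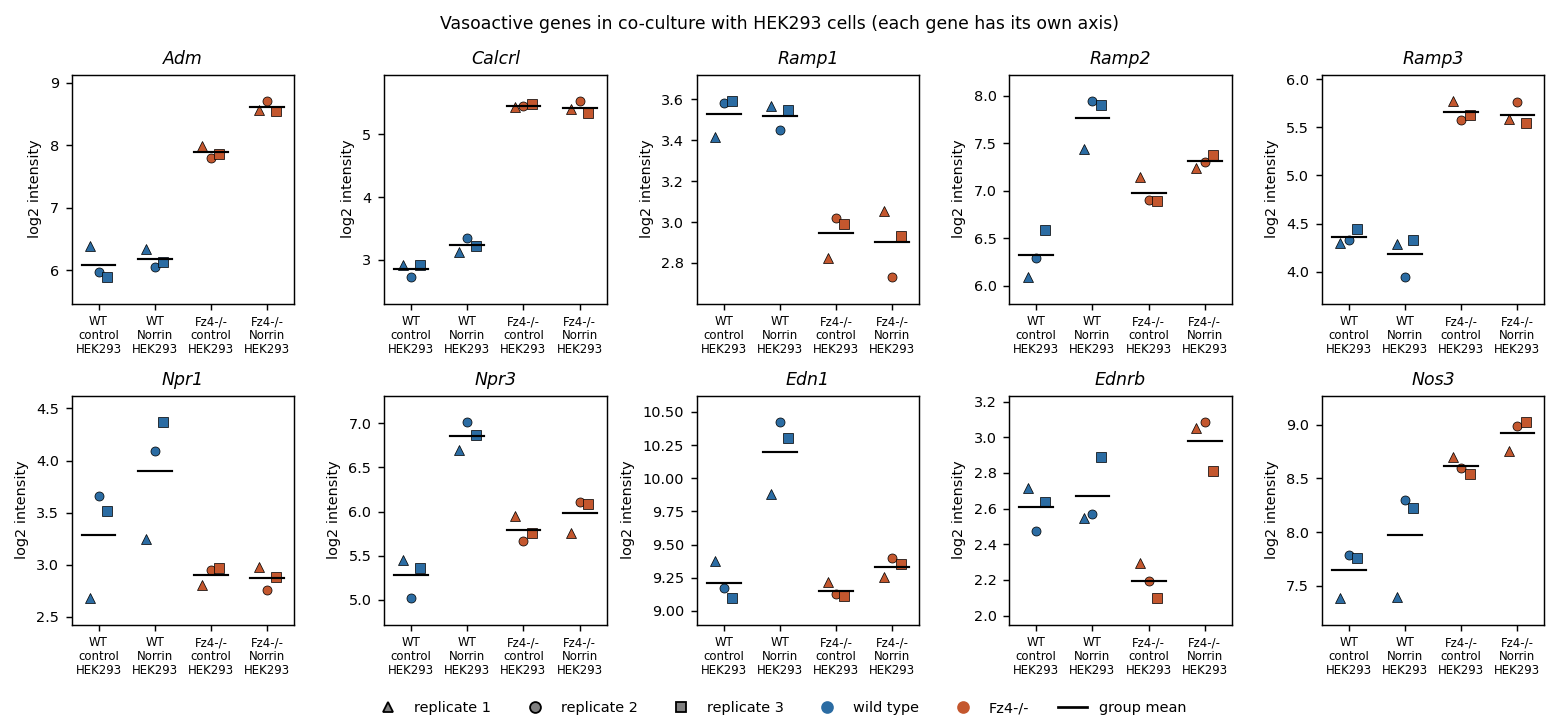
Log2 intensity of the 10 genes in the 12 co-culture arrays, with a marker shape per replicate number and a line at each group mean; each gene has its own vertical axis. Ramp2, Npr3 and Edn1 lie higher with Norrin in wild type arrays, and Adm, Calcrl and Ramp3 lie higher in all Fz4-/- than in all wild type arrays.

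Between the genotypes in co-culture, 8 of 10 genes passed the threshold with control HEK293 cells, against 50.9% of all genes (12.1% higher and 38.8% lower), and 10 of 10 with Norrin cells, against 49.9% (11.5% higher and 38.4% lower). The genotypes did not overlap for 8 of 10 and 9 of 10, against 60% and 56.9% of all genes. The median of all genes was -0.20 in both comparisons, and changes are read against that shift, whose cause was not tested. After each array was centred on its median it was -0.01 and 0.00, which centring brings about by construction. Calcrl differed by 2.61 ± 0.10 and 2.19 ± 0.10 and Adm by 1.80 ± 0.13 and 2.43 ± 0.13, with control and Norrin cells. The second Calcrl probe set, 1418489_a_at, gave 0.63 and 0.73, and the second of Adm, 1416077_at, 1.65 and 1.86. Ramp3 (1.30 and 1.44) and Nos3 (0.97 and 0.95) were higher and Ramp1 (-0.59 and -0.62) lower in Fz4-/- cells in both. Ramp2 was 0.65 higher with control and 0.46 lower with Norrin cells, the latter -0.25 and not past the threshold after centring. Npr1 differed by -0.38, not past the threshold, with control cells (-0.69 and past it without wild type control replicate 1) and by -1.03 with Norrin cells, and Edn1 by -0.06, not past it, and -0.87. Ednrb differed by -0.41 (-0.22 and not past the threshold after centring) and by 0.31 (not past it without wild type Norrin replicate 1 or 2 or Fz4-/- Norrin replicate 1 or 2, at 0.25 to 0.28). The Ramp2 difference with Norrin cells was likewise lost without wild type Norrin replicate 2 or 3 (-0.37 and -0.38). The endothelial marker mean was 0.95 higher in Fz4-/- than in wild type arrays with control cells and 0.36 higher with Norrin cells, while 6 and 7 of the 10 mural markers were lower in them. Of 6 fibroblast markers 5 were lower in both, with medians of -0.84 and -1.48, and their array means were 4.67 to 4.80 in wild type and 3.00 to 3.07 in Fz4-/- cells with control cells. The part of the mural and fibroblast lists in the differences was not tested.

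Relative to the endothelial marker mean several of these co-culture differences shrank or turned. With control cells Nos3 read 0.02, with overlap, and Ramp2 -0.29 and Npr3 -0.44, both lower without overlap. Edn1 read -1.01 with control and -1.23 with Norrin cells, and Npr1 -1.33 and -1.39, all without overlap. Ednrb with Norrin cells read -0.05, with overlap. Adm (0.85 and 2.06), Calcrl (1.66 and 1.83) and Ramp3 (0.35 and 1.08) were higher and Ramp1 (-1.53 and -0.98) lower in Fz4-/- cells on this reading too. The Ramp1 reading holds the marker differences of 0.95 and 0.36 beside its own of -0.59 and -0.62, among low values. Nos3 with Norrin cells was 0.59 higher.

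The wider vasoactive set held 69 genes, of which 65 were measured and 55 were not among the 10. In the genotype comparisons 5 rose and 4 fell on gelatin, and 7 rose and 3 fell on Matrigel. These are 16.4% and 18.2% of the 55, near the 14.9% and 15.7% of all genes. Gpr182, a receptor gene listed here with the adrenomedullin receptors but not part of the CALCRL and RAMP complex, was higher in Fz4-/- cells. It differed by 2.80 ± 0.32 on gelatin and 3.32 ± 0.32 on Matrigel (limma adjusted p = 0.000126 and 3.58e-05). Pde2a, a phosphodiesterase that cyclic GMP stimulates, was higher by 0.98 and 0.95. Nppb, the gene of brain natriuretic peptide, was 1.80 ± 0.19 lower on gelatin, and Arg2, which consumes the arginine used by nitric oxide synthases, differed by -1.14. On Matrigel Nostrin, a NOS3 trafficking protein, differed by -0.69 and Adm2, a second adrenomedullin peptide gene, by -0.60.

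For Matrigel against gelatin, 1 of the 55 rose and 7 fell in wild type cells, and 2 rose and 6 fell in Fz4-/- cells. That is 14.5% in each, below the 18.4% and 19.7% of all genes. Slc7a1, an arginine carrier, changed by -0.80 and -1.16, and Ddah1, which breaks down an inhibitor of nitric oxide synthases, by -0.78 and -0.87. In wild type cells Nppb fell by 1.80, and Gch1, which makes a cofactor of nitric oxide synthases, changed by -0.78. In Fz4-/- cells Agtr1a, an angiotensin receptor gene, changed by -0.69 and Adm2 by -0.66. Limma called 0 of the 55 for the difference between the responses, with 9 (16.4%) at an unadjusted p under 0.05, against 4.56% of all genes.

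With Norrin, 4 of the 55 rose and 2 fell in wild type cells, and limma called 0 in Fz4-/- cells. The first is 10.9%, near the 9.57% of all genes. Of the 55, 8 (14.5%) had in Fz4-/- cells an unadjusted p under 0.05, against 8.54% of all genes. Ackr3, a receptor that also takes up adrenomedullin, rose by 2.02 ± 0.12 in wild type cells (limma adjusted p = 4.64e-09). Cav1, the caveolin that holds NOS3 in check, rose by 1.74 ± 0.12 and Pde4b, a cyclic AMP phosphodiesterase, by 0.58, while Arg2 changed by -0.94. Relative to the endothelial marker mean these read 1.24 for Ackr3, 0.96 for Cav1, -0.20 for Pde4b and -1.72 for Arg2, none with overlap. The Norrin responses of the genotypes differed for Ackr3 (-2.12 ± 0.17), Cav1 (-1.40 ± 0.17) and Crcp (0.59). These are 3 of the 55 (5.45%), against 2.12% of all genes. At an unadjusted p under 0.05 there were 4 (7.27%), against 12.1% of all genes. Between the genotypes in co-culture 8 rose and 20 fell with control cells and 6 rose and 21 fell with Norrin cells, or 50.9% and 49.1% of the 55, against 50.9% and 49.9% of all genes. The largest were Pam, which amidates adrenomedullin (4.37 and 3.95), Npr2, the receptor of C-type natriuretic peptide (-2.35 and -2.44), and Pde2a (1.44 and 1.19), followed by Cav1 (1.38) with control and Gch1 (1.06) with Norrin cells.

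The genes whose levels ran most like those of each gene over the 12 arrays grown alone were found by Pearson correlation, as a description, with r over the 12 co-culture arrays beside it. The arrays share their 4 groups, so r mostly follows the group means. For Adm these were Rrp7a (0.98, then 0.77) and Ankrd50 (0.98, then 0.18). For Calcrl they were Cdc14a (0.99, then -0.61) and Tspan14 (0.98, then 0.87), and for Ramp3 Naa60 (0.96, then 0.71) and Abitram (0.96, then -0.84). For Ramp2 they were Gprc5b (0.96, then -0.37) and the endothelial adhesion gene Esam (0.95, then 0.98). For Edn1 they were Myc (0.96, then -0.45) and Cited2 (0.94, then -0.02), and for Nos3 Myd88 (0.94, then -0.53) and Mrps18a (0.94, then -0.43). Of these 12 genes, Esam, Tspan14, Rrp7a and Naa60 kept an r above 0.7 in co-culture. Ramp1, Npr1, Npr3 and Ednrb averaged below the median gene in cells grown alone and were not searched.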

How the data were processed

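RNA from 24 samples was hybridised to Affymetrix mouse genome arrays. The authors deposited 1 log2 intensity per probe set and array, made with RMA per the submitters' processing notes (version not given in the sources used here); which arrays were normalized together is not given either. Per the platform annotation, 34945 of 45101 probe sets name 1 gene, 932 several and 9160 none, besides 64 controls; 34741 matched a current RefSeq symbol. The 2 Ramp2 probe sets that also name Vps25 were not used. Each gene was represented by the probe set that averaged highest across the 24 arrays.

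Differences between group means came from limma 3.58.1 (R 4.3.3), 1 fit for the 12 arrays grown alone and 1 for the 12 co-cultures (8 residual degrees of freedom each), empirical Bayes, and Benjamini-Hochberg adjustment over 18193 genes. The number of arrays limits the precision. The fit was checked on simulated data. The main fits ignored the replicate number, which was used as a block only as an alternative. Replicate numbers count as pairs where same-numbered arrays deviated together (every correlation over 0.1). This held in the 4 comparisons of cells grown alone (0.243 to 0.718) and for Norrin in wild type cells (0.100 to 0.361). It also held for genotype with Norrin HEK293 cells (0.138 to 0.372). Replicate 1 stood apart in most groups, and a shift it shares between 2 groups raises every such correlation. The rule therefore does not show that replicates 2 and 3 were paired. The rule for named genes took all 10 genes, and of the other vasoactive genes the 4 past the threshold with the largest absolute difference per comparison; likeness took the 2 genes of highest r. The members and lists were chosen with earlier results of these data known. Alternatives covered normalization, probe set choice, a level filter, other sets of arrays, the replicate block and leaving out each array.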

Additional observations from a re-analysis of the deposited data

Results flagged for a closer look

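Of the 10 genes, 4 responded differently to Norrin in the 2 genotypes by the test of that difference, with limma adjusted over all genes. The share of all genes past the threshold in that test was 2.12%. The response in Fz4-/- cells minus that in wild type cells was -1.38 for Npr3 (1.58 in wild type, 0.19 in Fz4-/- cells) and -1.11 for Ramp2 (1.44 and 0.33). Both kept an adjusted p under 0.05 without any 1 array (at most 0.00362 and 0.0246). It was -0.81 for Edn1 (0.99 and 0.18) and 0.73 for Ednrb (0.06 and 0.79), and each of these missed the threshold when any 1 of 10 (Edn1) or 8 (Ednrb) of the 12 arrays was left out. The Ednrb result rested on 1 of its 3 probe sets, and the mean of all 3 gave 0.19 (limma adjusted p = 0.695). Its level was low, with a mean of 2.20 in Fz4-/- cells with control HEK293 cells. Of the 15 endothelial markers, 5 had a lower Norrin response in Fz4-/- cells by the same test, and the median of the 15 was -0.60. At an unadjusted p under 0.05 there were 10, against 12.1% of all genes. Relative to the marker mean, the Norrin differences in wild type and Fz4-/- cells were 0.80 and -0.004 for Npr3. They were 0.66 and 0.13 for Ramp2, 0.21 and -0.01 for Edn1, and -0.72 and 0.59 for Ednrb. The part of the markers in these 4 results was not tested.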

How the results depend on the processing

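The number of the 10 genes past the threshold kept within 1.5 times its value except as follows. One setting kept only probe sets without the suffix _s_at, _x_at or _a_at (8 of the 10 genes left, without Ramp3 and Edn1). It read Adm by 1416077_at in place of 1447839_x_at. The number was then 3 and 2 for genotype on gelatin and Matrigel, and 2 and 1 for Norrin in wild type and Fz4-/- cells. With only genes above the median level, the fit lost Ramp1, Npr1, Npr3 and Ednrb in cells grown alone. In co-culture it lost Calcrl, Ramp1, Npr1 and Ednrb. Of the genes left, the number was 3 for genotype on Matrigel, 2 and 5 for Matrigel and 1 for Norrin in Fz4-/- cells. It was 5 and 6 for genotype with control and Norrin HEK293 cells, the last being all the genes left. With replicates 2 and 3 averaged it was 2 and 1 for genotype on gelatin and Matrigel, 0 and 2 for Matrigel in wild type and Fz4-/- cells, 0 for Norrin in Fz4-/- cells and 1 for the difference of Norrin responses. The difference of Matrigel responses had 1 (Npr3) with the mean of all probe sets, with all 24 arrays in 1 fit and without replicate 1 of every group. Norrin in Fz4-/- cells had 1 with quantile normalization, the mean of probe sets and all 24 arrays, and the difference of Norrin responses had 2 with all 24 arrays. The number of all genes past the threshold moved too over the settings. It ran from 667 to 4911 and 736 to 4857 for genotype on gelatin and Matrigel, and 574 to 5088 and 712 to 5498 for Matrigel. For Norrin it ran from 691 to 2161 in wild type and 10 to 162 in Fz4-/- cells, and 90 to 562 for their difference. It ran from 0 to 61 for the difference of Matrigel responses. For genotype with control and Norrin HEK293 cells it ran from 4996 to 9779 and 4702 to 9845.

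Leaving out 1 array gave 4 to 6, 4 to 5, 2 to 5 and 6 to 8 genes for the 4 comparisons of cells grown alone and 0 to 1 for their difference of responses. It gave 3 to 6 for Norrin in wild type, 1 to 2 in Fz4-/- cells, 2 to 5 for the difference of Norrin responses, and 8 to 9 and 8 to 10 for genotype with control and Norrin HEK293 cells. In these settings, and with the replicate block below, the number of all genes moved too, within the ranges above. The counts of the 10 genes are therefore not a result by themselves. With suffix-free probe sets Calcrl is read by 1459536_at alone, which is near the floor, and its sign turned: -0.20 for genotype on Matrigel, -0.23 for Matrigel in Fz4-/- cells, -0.027 for Norrin in wild type cells, and -0.27 and -0.10 for genotype with control and Norrin HEK293 cells. With the mean of probe sets Ednrb turned to -0.030 for genotype with Norrin HEK293 cells. In 70 further cases a sign changed with neither value past the threshold. Of 894 alternative values of results past the threshold, 777 kept sign and call.

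The replicate block gave 7 of the 10 genes on gelatin (4138 genes in all, against 2719 without it), 5 for genotype on Matrigel (4379 against 2854), 6 and 8 for Matrigel, and 5 for Norrin in wild type cells; beside the values given with the results it changed no other call of the 10 genes. Where the numbers do not count as pairs it gave 2 for Norrin in Fz4-/- cells and 8 for genotype with control HEK293 cells. There 0 of 6 and 2 of 6 arrays correlated best with their own number. For Matrigel in wild type cells, counted as paired, it was 2 of 6 as well. Centring each array turned the split of all genes higher and lower in Fz4-/- cells from 1312 and 1407 to 1798 and 1097 on gelatin and from 1258 and 1596 to 2473 and 1131 on Matrigel. For Matrigel in wild type cells it went from 1221 and 2135 to 824 and 2598, and for Norrin in Fz4-/- cells from 39 and 44 to 40 and 26. It went from 2199 and 7054 to 3602 and 3759, and from 2099 and 6980 to 3659 and 3480, for genotype with control and Norrin HEK293 cells. A fit on only the arrays compared gives no difference of responses. Genes near the floor, such as Ednrb and Calcrl in wild type co-culture, have a limited range in which to fall; the cause of the other changes was not tested.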
